A study of Mus musculus with 9 samples.

Results

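The nuclear genes that encode the subunits of the mitochondrial respiratory chain and of ATP synthase were described across 3 subsets of mouse γδ T cells. They were taken by symbol from the array rows that carry exactly 1 gene symbol: Nduf subunits of complex I, Sdha to Sdhd of complex II, Uqcr genes of complex III, Cox4 to Cox8 genes of complex IV and Atp5 genes of complex V. Where a gene had several rows, the row with the highest mean was used. This gave 80 genes of the 22180 tested, 33 in complex I, 4 in complex II, 8 in complex III, 17 in complex IV and 18 in complex V. The complex was assigned by symbol alone, so Ndufa4 and Ndufa4l2 are counted with complex I, whichever complex their proteins join. Among them 78 are protein coding, and Uqcrh-ps1 and Atp5c1-ps are pseudogenes. A further 9 symbols of the same families had no row of their own and are not analysed here (Cox6c, Ndufb2, Ndufb4, Ndufb4b, Ndufb4c, Ndufs5-ps, Ndufs6, Ndufs6b and Uqcr10).

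All cells came from C57BL/6 mice, with no other genotype or treatment named in the labels. IELs are intraepithelial lymphocytes of the small intestine, while the Naive-like and Type-1 subsets are both from peripheral lymph nodes, and each subset has 3 arrays (Affymetrix Mouse Gene ST) called biological replicates. The labels leave unstated whether an array holds 1 mouse or a pool, how old the mice were, and how cells were gated beyond a list of antibodies. The p-values therefore reflect the array-to-array spread, part of which may be technical. IELs were shaken off the gut wall and gradient-purified whereas lymph nodes were mashed, so subset, tissue and isolation differ together in each comparison with IELs and cannot be told apart. Type-1 against Naive-like is the comparison within 1 tissue. In bulk RNA, fewer cells of a type and less RNA per cell cannot be told apart.

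The respiratory chain sits in the inner mitochondrial membrane. Complex I takes electrons from NADH and complex II takes them from succinate, both pass them to coenzyme Q, complex III passes them on to cytochrome c, and complex IV hands them to oxygen. Complexes I, III and IV pump protons while they do so, and complex V, the ATP synthase, lets the protons flow back and makes ATP. Most subunits are encoded in the nucleus, a few in the mitochondrial genome, and complex II is entirely nuclear. In T cells, resting and memory states are known for their reliance on oxidative phosphorylation, and activated effector states for a shift toward glycolysis.

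The promoters of these genes are known for binding sites of a small set of transcription factors, so the sequences around their starts were searched for short motifs on both strands. In RefSeq's table for GRCm38.p6, which holds 250 bases before to 50 bases after each start, 64 of the 80 genes had 69 promoters. The genes without an entry are Atp5a1, Atp5c1-ps, Atp5mpl, Cox4i1, Cox4i2, Cox6a2, Cox8c, Ndufa2, Ndufa4l2, Ndufb9, Ndufs1, Sdhc, Uqcrb, Uqcrc2, Uqcrh-ps1 and Uqcrq. The core of the nuclear respiratory factor NRF1 (GCGCATGC) was present in 10 of the 69 promoters, 14.5%, against 2.71% of all 32851 promoters of the same length. The core of the ETS family, which includes GABP (CCGGAAG), was present in 17, 24.6%, against 8.86%. YY1 letters (AAGATGGC) were present in 9, 13.0%, against 2.75%, and the motif of the estrogen-related receptors (TCAAGGTCA) in 2, 2.90%, against 0.423%. At least 1 of these 4 motifs was found in 31 promoters, 44.9%, against 13.7% of all. TATAAA was present in 9, 13.0%, against 13.6%, and the median GC content was 57.3% against 52.7%. A match is a description of the letters and not evidence of a bound site.

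7 of these promoters are shown, each 300 bases and 5′ to 3′ on the gene's strand, with any NRF1, ETS, YY1 or estrogen-related receptor letters in capitals. They belong to the 5 genes of lowest p between IELs and Type-1 cells and to complex II, as far as the table has an entry, so the choice used values given below. Of the 7, 3 hold a motif: Uqcrh has ETS letters, Sdhb has NRF1 and ETS letters, and Sdhd has ETS and estrogen-related receptor letters, with no overlap between them. Cox7a1, Atp5g1, Cox5a and Sdha have none of these letters in this window.
Cox7a1, chr7:30183921-30184220, plus strand: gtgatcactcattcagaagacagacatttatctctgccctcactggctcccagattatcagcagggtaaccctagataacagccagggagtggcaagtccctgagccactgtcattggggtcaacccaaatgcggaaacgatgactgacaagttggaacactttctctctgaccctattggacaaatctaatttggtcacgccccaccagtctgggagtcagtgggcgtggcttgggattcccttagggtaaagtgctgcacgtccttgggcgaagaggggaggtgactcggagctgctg
Atp5g1, chr11:96075582-96075881, minus strand: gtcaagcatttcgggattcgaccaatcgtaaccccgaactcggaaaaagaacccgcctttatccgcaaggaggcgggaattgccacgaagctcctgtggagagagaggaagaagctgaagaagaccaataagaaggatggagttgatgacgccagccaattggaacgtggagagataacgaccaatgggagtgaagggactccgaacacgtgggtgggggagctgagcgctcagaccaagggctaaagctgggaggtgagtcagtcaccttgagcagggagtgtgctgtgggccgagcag
Cox5a, chr9:57520982-57521281, plus strand: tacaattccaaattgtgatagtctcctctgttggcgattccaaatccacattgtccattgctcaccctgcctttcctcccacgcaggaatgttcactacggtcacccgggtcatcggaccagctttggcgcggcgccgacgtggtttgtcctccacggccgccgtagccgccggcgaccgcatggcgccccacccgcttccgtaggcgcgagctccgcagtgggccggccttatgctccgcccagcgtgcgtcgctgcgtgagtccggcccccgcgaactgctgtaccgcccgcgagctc
Uqcrh, chr4:116075021-116075320, minus strand: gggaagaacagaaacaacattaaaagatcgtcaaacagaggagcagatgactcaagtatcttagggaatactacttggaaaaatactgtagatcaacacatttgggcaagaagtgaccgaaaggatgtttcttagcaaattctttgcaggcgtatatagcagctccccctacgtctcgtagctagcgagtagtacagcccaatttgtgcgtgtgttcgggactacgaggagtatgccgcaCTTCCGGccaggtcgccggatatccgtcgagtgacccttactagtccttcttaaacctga
Sdha, chr13:74350191-74350490, minus strand: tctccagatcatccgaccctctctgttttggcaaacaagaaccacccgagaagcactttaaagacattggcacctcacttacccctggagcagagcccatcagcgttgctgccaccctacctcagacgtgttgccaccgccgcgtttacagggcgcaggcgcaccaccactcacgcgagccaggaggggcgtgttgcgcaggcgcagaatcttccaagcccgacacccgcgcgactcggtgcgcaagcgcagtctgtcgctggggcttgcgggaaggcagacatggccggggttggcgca
Sdhb, chr4:140961021-140961320, plus strand: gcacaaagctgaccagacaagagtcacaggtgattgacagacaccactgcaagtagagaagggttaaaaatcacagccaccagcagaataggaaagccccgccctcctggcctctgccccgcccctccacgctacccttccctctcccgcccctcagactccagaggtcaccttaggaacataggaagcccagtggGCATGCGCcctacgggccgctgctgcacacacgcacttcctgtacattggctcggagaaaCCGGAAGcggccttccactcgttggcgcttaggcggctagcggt
Sdhd, chr9:50603800-50604099, minus strand: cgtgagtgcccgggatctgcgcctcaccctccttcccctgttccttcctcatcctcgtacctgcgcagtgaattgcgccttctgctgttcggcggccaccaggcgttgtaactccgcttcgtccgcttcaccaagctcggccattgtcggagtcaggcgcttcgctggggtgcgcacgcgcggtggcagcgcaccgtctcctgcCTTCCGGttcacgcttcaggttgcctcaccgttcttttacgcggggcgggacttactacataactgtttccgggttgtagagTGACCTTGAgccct

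On each of the 9 arrays the T-cell receptor complex genes Cd3d, Cd3e and Cd3g lay between 10.1 and 12.3 (log2), as the T-cell label requires. Cd3g was higher in IELs than in Type-1 cells by 0.99 ± 0.23 (limma adjusted p 0.0269), and whether that moves with the respiratory genes was not tested. The other 7 genes of that marker list, the γδ receptor chains among them, were matched to no row of 1 symbol and are not analysed here, so the γδ identity itself was not checked. All values are log2 on the authors' normalized scale. A value is a level, compared between arrays of the same gene only, and a difference is the first subset minus the second with its standard error and n = 3 arrays per subset. The number of arrays limits the precision: the median standard error of a difference over the 80 genes was 0.25. Of the 80 genes, 71 had a mean above the median of all genes (4.52).

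Before any comparison of subsets, the arrays of 1 subset differed from each other over the respiratory chain as a whole. IEL replicate 1 had the highest of the 3 IEL values in 59 of the 80 genes, 73.8%, against 38.5% of all genes, and stood a median of 0.44 above the mean of the other 2 IEL arrays (all genes, 0.00). IEL replicate 3 was the lowest in 56. Among Naive-like arrays, replicate 3 was the highest in 61 of 80, 76.3% against 37.3% of all genes, with a median gap of 0.27, and replicate 2 the lowest in 49. Type-1 replicate 1 was the highest in 44, 55% against 36.6%. The IEL shift was wide in complex III (0.59, highest in 6 of 8 genes), complex I (0.56, 28 of 33) and complex V (0.41, 13 of 18), narrower in complex IV (0.19, 9 of 17) and smallest in complex II (0.09).

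The largest gaps between IEL replicate 1 and the other IEL arrays were in small accessory subunits. Atp5mpl, a small proteolipid of ATP synthase, stood 1.41 above the mean of the other 2, Ndufa7 1.36, Ndufc1 1.26 and Cox7a2, a subunit of cytochrome c oxidase, 1.17. In 6 genes IEL replicate 1 was instead the lowest of the 3: Sdha, Uqcrc1, Ndufv1, Atp5a1, Atp5c1 and Atp5d. These encode catalytic or core proteins or parts of the F1 head, but other genes of these kinds went the opposite way. The 6 measured core subunits of complex I had a median gap of 0.36, with IEL replicate 1 the highest in 4. Uqcrfs1 of complex III stood 0.91 above the other 2 arrays, and Atp5e of the head 1.08. The head as a group of 5 genes (Atp5a1, Atp5b, Atp5c1, Atp5d and Atp5e) had a median gap of -0.23. The 63 cytosolic ribosomal protein genes showed a gap of the same sign as most respiratory subunits: IEL replicate 1 was the highest in 44 of them, with a median gap of 0.30. Mitochondrial ribosomal protein genes, 71 measured, did so too, with IEL replicate 1 highest in 50 and a median gap of 0.41. The 10 subunits of the mitochondrial genome stood the other way, with a median gap of -0.26. This spread between arrays sets the error of every difference that follows: the median standard deviation within a subset was 0.34 for IELs, 0.21 for Naive-like and 0.23 for Type-1 cells.

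**Figure D1:**
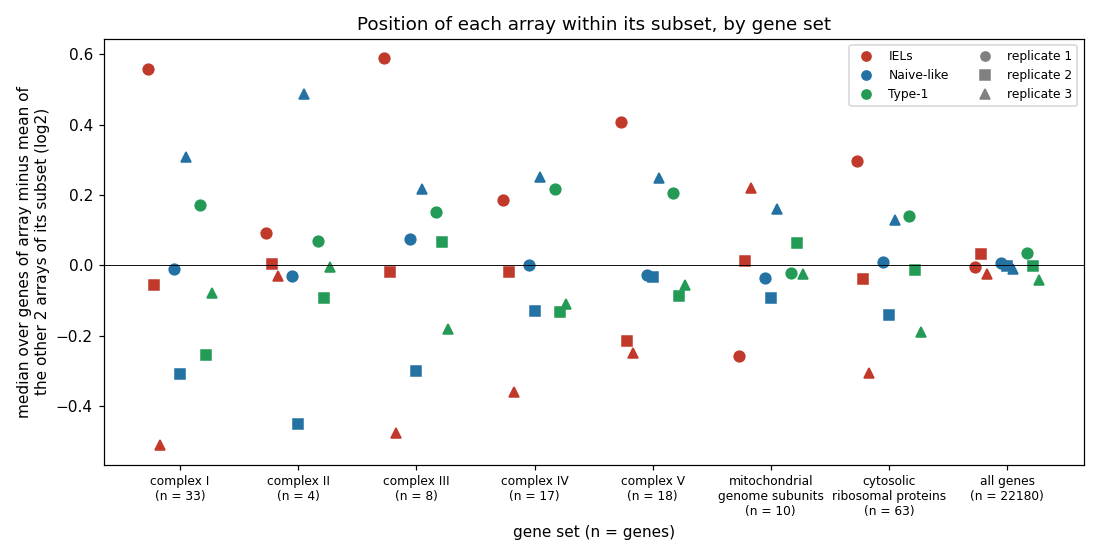
Median over the genes of a set of each array's log2 value minus the mean of the other 2 arrays of its subset, for the 5 complexes, the subunits of the mitochondrial genome, cytosolic ribosomal proteins and all genes. Colours are subsets and shapes are replicate numbers. IEL replicate 1 lies above 0 in all 5 complexes, from 0.09 in complex II to 0.59 in complex III, and below 0 for the mitochondrial genome, while all 9 arrays lie close to 0 over all genes.

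The first comparison asked how the chain in intestinal IELs compares with that in Naive-like cells of lymph nodes. None of the 80 genes passed the test, while 792 of all 22180 genes were higher in IELs, 3.57%, and 360 lower, 1.62% (limma, adjusted p under 0.05). At an unadjusted p under 0.05 there were 7 of 80, 8.75%, against 14.2% of all genes. By sign 58 of 80 were higher in IELs, with a median difference of 0.16 against -0.01 over all genes. Groups that did not overlap, with every IEL array higher, were found in 8 of 80, against 10.9% of all genes, and with every IEL array lower in 2, against 9.25%. The shares of the chain that passed or did not overlap were thus near or under those of all genes. Without IEL replicate 1 the median difference was -0.01.

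The second comparison asked how Type-1 cells differ from Naive-like cells within lymph nodes. None of the 80 genes passed, and none had an unadjusted p under 0.05, against 6.48% of all genes. The background was small: 47 of all genes were higher in Type-1 cells, 0.212%, and 16 lower, 0.0721%. By sign 26 of 80 were higher in Type-1 cells, the median difference was -0.07 against 0.03 over all genes, of which 54.8% were higher, and all differences lay between -0.41 and 0.52. Every Type-1 array was higher than every Naive-like array in 2 genes, Ndufc1 and Atp5g1, against 6.33% of all genes. Every Type-1 array was lower in 6 genes (Cox6a1, Cox6b2, Ndufa2, Ndufa8, Ndufv1 and Uqcrh), against 5.11% of all genes. The sign of the median did not hold throughout: it was 0.03 without Naive-like replicate 3 and 0.01 after cyclic loess normalization of all 9 arrays.

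The third comparison set IELs against Type-1 cells. Here 2 of the 80 genes were higher in IELs, Cox7a1 and Sdhc, which is 2.5% against 3.73% of all genes, and none was lower, against 1.41%. At an unadjusted p under 0.05 there were 13, 16.25%, against 16.3% of all genes, 12 of them higher in IELs. By sign 62 of 80 were higher in IELs, with a median difference of 0.22 against -0.03 over all genes, and 0.07 without IEL replicate 1. Every IEL array was above every Type-1 array in 12 of 80, 15% against 10% of all genes, and below in 2, Atp5g1 and Atp5c1-ps, against 9.78%. The comparisons share arrays, so their values are given side by side and not counted against each other. In a test over the 3 subsets together 1 of the 80 passed, Cox7a1, against 5.41% of all genes (limma F test, adjusted p 0.0421), and without any one of 8 of the 9 arrays, that is all but IEL replicate 3, none did.

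IEL and Type-1 arrays of the same replicate number tended to deviate together, with weak correlations over all genes (0.161, 0.104 and 0.303). The labels state no pairing. The same arrays also fall together by their descriptions, so number and description cannot be told apart among the IEL and Type-1 arrays alone. Over all 9 arrays they differ. By description Naive-like replicate 1 falls with IEL and Type-1 replicate 2, and Naive-like replicate 2 with their replicate 1. With the replicate number as a block over all 9 arrays, 3 genes passed between IELs and Type-1 cells: Cox7a1 (limma adjusted p 0.0357), Cox5a (0.0432) and Atp5g1, lower in IELs (0.0189). Sdhc did not (0.0568). With the block in the 6 arrays of these subsets alone, Atp5g1 passed (0.0478), and Cox7a1 (0.0704) and Sdhc (0.0702) did not. With the description set as a block over all 9 arrays, Sdhc passed (limma adjusted p 0.0456), as did Cox7a1 (0.0351), Cox5a (0.0377) and Atp5g1 (0.0257). Which genes pass thus depended on how the replicate numbers and descriptions were treated, while the estimated differences are the same in these fits.

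**Figure D2:**
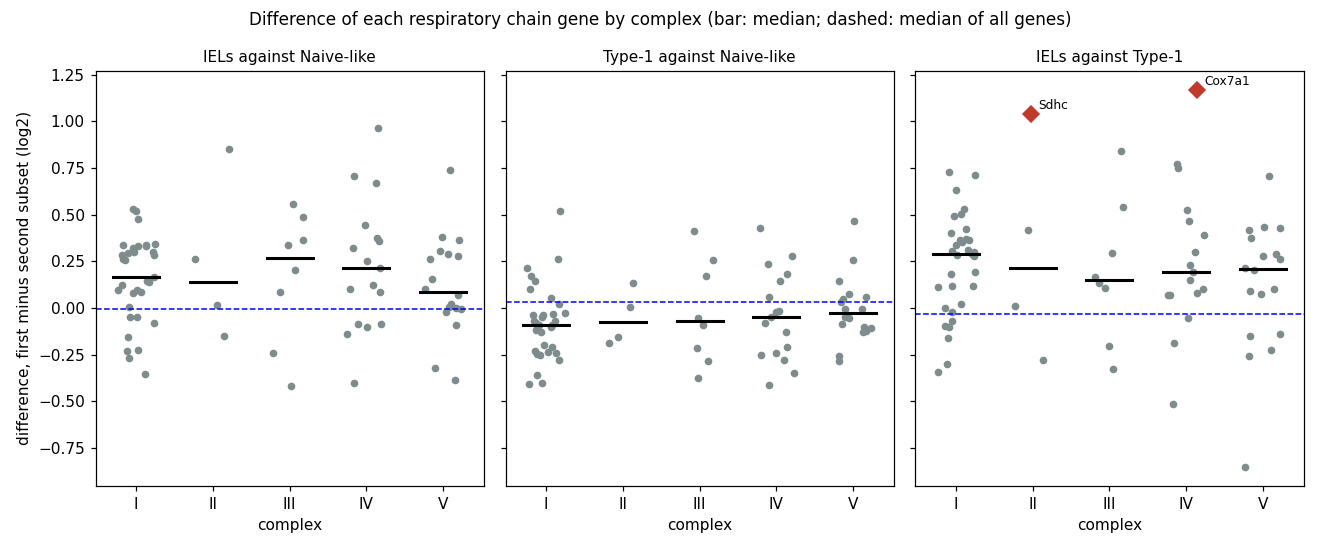
Fitted log2 difference of each of the 80 genes (points) by complex in the 3 comparisons, with the median of each complex as a bar and the median of all genes as a dashed line. Red diamonds passed the test. Most points of the IEL comparisons lie above 0 and most of Type-1 against Naive-like below it, within 0.52 of 0, and Sdhc and Cox7a1 are the 2 genes that passed, both in IELs against Type-1 cells.

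Complex I is the largest of the 5 and carries electrons from NADH along iron-sulphur clusters. No complex I gene passed in any comparison. Its median difference was 0.16 for IELs against Naive-like (25 of 33 higher), -0.09 for Type-1 against Naive-like (8 of 33 higher) and 0.29 for IELs against Type-1 cells (26 of 33 higher). Without IEL replicate 1 the first of these was -0.02 and the last 0.09. Ndufs4, an accessory subunit that holds the NADH-binding arm in place, had 9.19, 8.79 and 8.49 in IEL replicates 1, 2 and 3, 8.33, 8.17 and 8.55 in Naive-like and 7.91, 8.05 and 8.37 in Type-1 cells. All IEL values of Ndufs4 lay above all Type-1 values and its difference was 0.72 ± 0.23 (limma adjusted p 0.112). Ndufa2, a small accessory subunit, had the largest difference of the complex between IELs and Type-1 cells, 0.73 ± 0.25 (adjusted p 0.156). Its IEL values were 10.99, 10.18 and 9.96, and its Type-1 values 9.76, 9.69 and 9.49.

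The other extremes of complex I did not pass either. Ndufb5, an accessory subunit of the membrane arm, differed by 0.53 ± 0.28 between IELs and Naive-like cells (adjusted p 0.451), with 8.51 in IEL replicate 1 and 7.58 and 7.53 in the others. Ndufc1, also in the membrane arm, differed by 0.52 ± 0.35 between Type-1 and Naive-like cells (adjusted p 0.876), resting on 6.34 in Type-1 replicate 1 against 5.43 and 5.39. The 6 measured core subunits, which bind the cofactors or the quinone, had a median difference of 0.04 for IELs against Naive-like and 0.17 for IELs against Type-1 cells, and of -0.04 and -0.01 without IEL replicate 1. Ndufs1, which carries clusters of the arm that takes electrons from NADH, had the lowest difference of complex I between IELs and Type-1 cells, -0.34 ± 0.28 (adjusted p 0.607). Ndufs3 had the lowest between IELs and Naive-like cells, -0.36 ± 0.21 (adjusted p 0.542), while Ndufs7 and Ndufs8 stood at 0.34 ± 0.25 and 0.28 ± 0.29. Ndufv1, which binds NADH and the flavin, differed by -0.05 ± 0.20 and Ndufv2 by 0.12 ± 0.26 in the same comparison.

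Complex II is succinate dehydrogenase, shared between the chain and the TCA cycle, and its 4 subunits did not stand alike. Sdhc is the large membrane anchor that, with Sdhd, holds the heme and the coenzyme Q site. Its values were 7.07, 6.75 and 6.47 in IEL replicates 1, 2 and 3, 6.02, 5.42 and 6.29 in Naive-like and 5.37, 5.94 and 5.85 in Type-1 cells. Every IEL array was above every lymph node array. Sdhc was higher in IELs than in Type-1 cells by 1.04 ± 0.27 (limma adjusted p 0.0426), and its difference from Naive-like cells was 0.85 ± 0.27 (adjusted p 0.107). Sdhc passed in 9 of 24 alternatives, with adjusted p from 0.0276 to 0.272 and the same sign in all 24. Leaving out any single IEL or Type-1 array, or Naive-like replicate 1, ended it, with 0.89 ± 0.29 (adjusted p 0.121) without IEL replicate 1 and 0.86 ± 0.28 (adjusted p 0.151) without Type-1 replicate 1.

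The other 3 subunits of complex II did not pass. Sdhd, the small anchor, had 6.51, 6.33 and 6.46 in IELs, 6.01, 6.07 and 6.44 in Naive-like and 6.02, 5.85 and 6.18 in Type-1 cells. Its IEL values were all above its Type-1 values, with a difference of 0.42 ± 0.19 (limma adjusted p 0.317). Sdha, the flavoprotein that oxidizes succinate, had 8.31, 8.82 and 8.60 in IELs, 8.64, 8.61 and 8.92 in Naive-like and 8.94, 8.90 and 8.72 in Type-1 cells. These groups overlapped and the difference between IELs and Type-1 cells was -0.28 ± 0.20 (adjusted p 0.546). Sdhb, the iron-sulphur subunit, had means of 7.67, 7.65 and 7.66 in IELs, Naive-like and Type-1 cells. The difference of Sdhb between IELs and Type-1 cells was 0.01 ± 0.28 (limma adjusted p 0.991).

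Complex III passes electrons from reduced coenzyme Q to cytochrome c. None of its 8 genes passed, with a median difference of 0.27 for IELs against Naive-like (6 of 8 higher), -0.07 for Type-1 against Naive-like and 0.15 for IELs against Type-1 cells. Without IEL replicate 1 the first was 0.08 and the last 0.06. Uqcrh, the hinge protein at the docking side for cytochrome c, had 7.22, 6.50 and 6.53 in IELs, 6.20, 6.07 and 6.30 in Naive-like and 5.71, 5.95 and 6.06 in Type-1 cells. Its IEL arrays were above all others, and its difference from Type-1 cells was 0.84 ± 0.23 (limma adjusted p 0.0567) and from Naive-like cells 0.56 ± 0.23 (adjusted p 0.265). The row of its pseudogene Uqcrh-ps1 was dim, with means of 2.62, 2.54 and 2.95 in IELs, Naive-like and Type-1 cells and a difference of -0.33 ± 0.31 between IELs and Type-1 cells. Whether the 2 rows share signal was not tested. Uqcrq, a small subunit next to cytochrome b, had 7.70, 6.96 and 6.90 in IELs. Its mean differences were 0.54 ± 0.24 from Type-1 (limma adjusted p 0.295) and 0.49 ± 0.24 from Naive-like cells (adjusted p 0.415). Every IEL array was above every lymph node array, but the lowest (6.9045) only just above the highest Naive-like array (6.9032). Uqcr11, a small subunit as well, had every IEL array below every Naive-like array, at -0.42 ± 0.22 (adjusted p 0.454).

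The large core proteins of complex III showed less. Uqcrc1 differed by -0.24 ± 0.26 between IELs and Naive-like cells and had the lowest difference of the complex in Type-1 against Naive-like cells, -0.38 ± 0.26. Uqcrc2 differed by 0.20 ± 0.24 between IELs and Naive-like cells. Uqcrfs1, the Rieske iron-sulphur protein, had 6.61 in IEL replicate 1 and 5.76 and 5.64 in the others, against 5.72, 5.42 and 5.76 in Naive-like cells. Its difference of 0.37 ± 0.26 (limma adjusted p 0.643) came largely from that array.

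Complex IV, cytochrome c oxidase, has a catalytic core from the mitochondrial genome and a nuclear shell, some of whose subunits have tissue-restricted isoforms. Its median difference was 0.21 for IELs against Naive-like (12 of 17 higher), -0.05 for Type-1 against Naive-like and 0.19 for IELs against Type-1 cells (14 of 17 higher). Without IEL replicate 1 the first was -0.05 and the last 0.13. Cox7a1, the isoform of subunit VIIa best known from heart, skeletal muscle and brown fat, had 5.70, 5.93 and 4.87 in IEL replicates 1, 2 and 3. The Naive-like values were 4.66, 4.25 and 4.70 and the Type-1 values 4.35, 4.14 and 4.50. IEL replicates 1 and 2 were well above all lymph node arrays and replicate 3 only just above the highest of them. Cox7a1 was higher in IELs than in Type-1 cells by 1.17 ± 0.27 (5.50 ± 0.56 against 4.33 ± 0.18, SD, limma adjusted p 0.0251), and its difference from Naive-like cells was 0.96 ± 0.27 (adjusted p 0.0669). In lymph nodes Cox7a1 lay near or under the median of all genes, and the table carries no detection calls.

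Cox7a1 passed in 17 of 24 alternatives, with adjusted p from 0.00427 to 0.128 and the same sign in all. The call ended without IEL replicate 1 (1.07 ± 0.30, limma adjusted p 0.0743), IEL replicate 2 (0.95 ± 0.28, 0.119), Type-1 replicate 1 (1.18 ± 0.31, 0.0623) or Type-1 replicate 2 (1.08 ± 0.31, 0.0917). Without IEL replicate 3 the difference from Naive-like cells was 1.28 ± 0.23 and passed (adjusted p 0.00997). The ubiquitous isoforms of the same subunit overlapped between IELs and Type-1 cells: Cox7a2 differed by 0.52 ± 0.30 (adjusted p 0.432) and Cox7a2l by 0.23 ± 0.24 (adjusted p 0.699). The isoforms were not tested against each other.

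The other 7 restricted isoforms, which are known from lung, muscle, testis or low oxygen, did not pass, and 6 of them had a mean under the median of all genes. Their differences between IELs and Type-1 cells ran from -0.52 ± 0.33 for Cox8b, a muscle isoform, to 0.15 ± 0.26 for Cox4i2, an isoform of lung and low oxygen. Cox8b rested on 1 Type-1 array at 4.74, with all other arrays between 3.13 and 3.73. Cox6b2, a testis isoform, had 4.89, 4.86 and 4.87 in IELs and 5.44, 5.19 and 5.20 in Naive-like cells. Its groups did not overlap, with IELs lower at -0.40 ± 0.18 (limma adjusted p 0.327). Cox6a2, Cox7b2, Cox8c and Ndufa4l2 had differences between -0.22 and 0.13 for IELs against Naive-like cells.

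Among the ubiquitous subunits of complex IV, Cox5a and Cox6a1 came closest to the threshold. Cox5a, which sits on the matrix side of the enzyme, had 9.20, 8.72 and 8.75 in IELs, 8.16, 8.18 and 8.32 in Naive-like and 8.33, 7.95 and 8.13 in Type-1 cells. Every IEL array was above every lymph node array, by 0.75 ± 0.20 over Type-1 (limma adjusted p 0.0548) and 0.67 ± 0.20 over Naive-like cells (adjusted p 0.0929). Cox6a1, the widely expressed isoform of subunit VIa, had 10.24, 10.43 and 9.68 in IELs, 9.56, 9.61 and 10.10 in Naive-like and 9.36, 9.44 and 9.24 in Type-1 cells. It separated IELs from Type-1 cells (0.77 ± 0.24, adjusted p 0.0974) but overlapped with Naive-like cells (0.36 ± 0.24). Without IEL replicate 3 its difference from Type-1 cells was 0.99 and passed (adjusted p 0.0459). Cox8a had every IEL array above every lymph node array, with smaller differences of 0.47 ± 0.21 and 0.44 ± 0.21. Cox4i1, the main isoform of subunit IV, differed by 0.25 ± 0.23 from Naive-like cells.

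**Figure D3:**
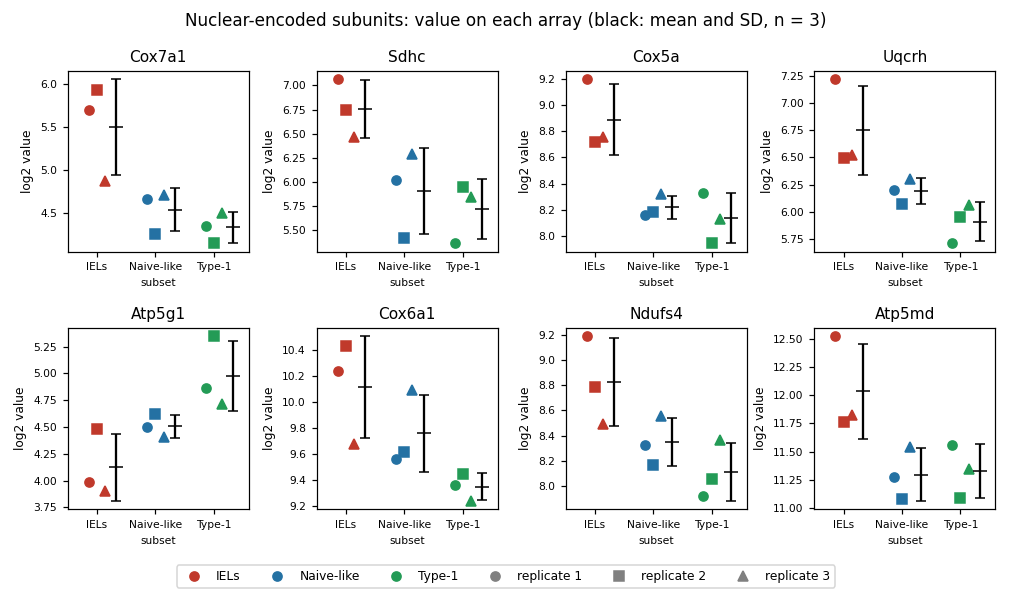
Log2 value on each of the 9 arrays for 8 nuclear-encoded subunits, with the mean and SD (n = 3) of each subset in black and a scale of its own in each panel. Colours are subsets and shapes replicate numbers. The IEL values of Cox7a1, Sdhc, Cox5a, Uqcrh and Atp5md lie above all lymph node values, those of Atp5g1 lie below all Type-1 values, and IEL replicate 1 is the top array in most panels.

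Complex V makes ATP in its F1 head, driven by a ring of subunit c in the membrane and held by a peripheral stalk. Its median difference was 0.08 for IELs against Naive-like (12 of 18 higher), -0.03 for Type-1 against Naive-like and 0.21 for IELs against Type-1 cells (13 of 18 higher), and no gene passed. Without IEL replicate 1 the first was -0.04 and the last 0.01. Atp5g1 is 1 of 3 genes that encode the same mature subunit c. It had 3.99, 4.48 and 3.90 in IELs, 4.50, 4.62 and 4.41 in Naive-like and 4.87, 5.34 and 4.72 in Type-1 cells. Type-1 cells had the highest values and every IEL array was below every Type-1 array, at -0.85 ± 0.23 (limma adjusted p 0.0527). The row of Atp5g1 was dim, with a mean of 4.535 over the 9 arrays, near the median of all genes (4.52), and every IEL value was under that median. The other differences of Atp5g1 were 0.47 ± 0.23 for Type-1 and -0.38 ± 0.23 for IELs, each against Naive-like cells. In 11 of the 24 alternatives Atp5g1 passed as lower in IELs than in Type-1 cells. The other 2 genes of subunit c had overlapping groups: Atp5g2, with 9.34, 9.08 and 9.0 in IELs and 9.27, 9.24 and 9.36 in Type-1 cells, differed by -0.15 ± 0.18 and Atp5g3, with 7.87, 7.27 and 7.57 against 7.35, 6.72 and 7.51, by 0.37 ± 0.24. The 3 genes were not tested against each other.

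Atp5md, a small subunit that helps ATP synthase form dimers, had 12.52, 11.76 and 11.83 in IELs, 11.27, 11.08 and 11.54 in Naive-like and 11.56, 11.08 and 11.34 in Type-1 cells. Every IEL array was the higher, by 0.74 ± 0.24 over Naive-like (limma adjusted p 0.133) and 0.71 ± 0.24 over Type-1 cells (adjusted p 0.15). The 5 genes of the F1 head were near no difference from Naive-like cells, with a median of 0.02. Atp5b, the catalytic subunit β, differed by 0.02 ± 0.21 from Naive-like and 0.28 ± 0.21 from Type-1 cells, and Atp5a1, the subunit α beside it, by 0.00 ± 0.22 and 0.09 ± 0.22. The central stalk subunits, counted with the head here, differed between IELs and Type-1 cells by -0.26 ± 0.20 for Atp5c1 (γ), 0.20 ± 0.20 for Atp5d (δ) and 0.42 ± 0.31 for Atp5e (ε), and none passed. The 4 stalk genes (Atp5h, Atp5j, Atp5o and Atp5pb) had a median of 0.17 between IELs and Naive-like cells, which was -0.04 without IEL replicate 1. Atp5h is uncertain, since its rows disagreed: the row used here gave 0.43 ± 0.30 between IELs and Type-1 cells and its dimmer row gave -0.98 ± 0.29 (adjusted p 0.092). Of the 9 genes with more than 1 row it is the 1 whose rows differed in sign in this comparison. Atp5k, a small membrane subunit, had the lowest difference of complex V in Type-1 against Naive-like cells, -0.28 ± 0.31.

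The subunits of complexes I, III and IV that come from the mitochondrial genome were measured as 10 genes and differed from most nuclear genes of the chain by sign. All 10 were lower by sign in IELs than in Type-1 cells, with a median difference of -0.54. Over all genes the median was -0.03, with 45.8% higher in IELs. Of the 10, 2 passed as lower, against 1.41% of all genes. The 63 cytosolic ribosomal protein genes also had a median below 0 in this comparison, -0.38. ND2, a proton-pumping subunit of complex I, had 8.66, 8.86 and 9.02 in IELs, 9.0, 9.44 and 9.28 in Naive-like and 9.84, 9.68 and 9.67 in Type-1 cells. It was lower in IELs than in Type-1 cells, at -0.89 ± 0.19 (limma adjusted p 0.0191). ND4L, another membrane subunit of complex I, had 6.37, 7.50 and 7.19 in IELs, 7.87, 7.02 and 7.83 in Naive-like and 8.39, 8.58 and 8.06 in Type-1 cells. It was lower in IELs as well, at -1.32 ± 0.31 (adjusted p 0.0293). In both genes every IEL array was under every Type-1 array and the Naive-like mean lay between.

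ND1 (-0.62 ± 0.18, limma adjusted p 0.0814) and ND5 (-0.62 ± 0.19, adjusted p 0.094) did not pass, nor did ND6 (-0.52 ± 0.18, adjusted p 0.151) and CYTB of complex III (-0.42 ± 0.20, adjusted p 0.333), but in all 4 every IEL array was under every Type-1 array. Of all genes, 9.78% had every IEL array under every Type-1 array. ND3 and ND4 of complex I did not pass either, and their groups overlapped. ND3 had 8.95, 8.47 and 8.63 in IELs and 8.88, 9.67 and 9.20 in Type-1 cells. ND4 had 11.06, 11.98 and 11.95 against 11.97, 12.16 and 12.25. The measured subunits of complex IV were near 0 in this comparison, COX1 at -0.12 ± 0.18 and COX3 at -0.10 ± 0.19, and their groups overlapped as well. COX2 is not among the 10 genes. None of the 10 passed between Type-1 and Naive-like cells, where 9 were higher by sign with a median of 0.22, or between IELs and Naive-like cells, where 3 were higher with a median of -0.33. The ND2 and ND4L calls both ended without IEL replicate 1, Type-1 replicate 1 or Type-1 replicate 2, ND2 also without IEL replicate 2 and ND4L without IEL replicate 3. Without IEL replicate 1 ND2 stood at -0.79 ± 0.21 (adjusted p 0.0522) and ND4L at -0.999 ± 0.29 (adjusted p 0.081), and the median of the 10 genes was -0.53. With the replicate block in the 6 arrays ND4L passed (adjusted p 0.0318) and ND2 did not (0.0562). Copies of mitochondrial sequence in the nucleus could share probes with these rows, and their part in the result was not tested.

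**Figure D4:**
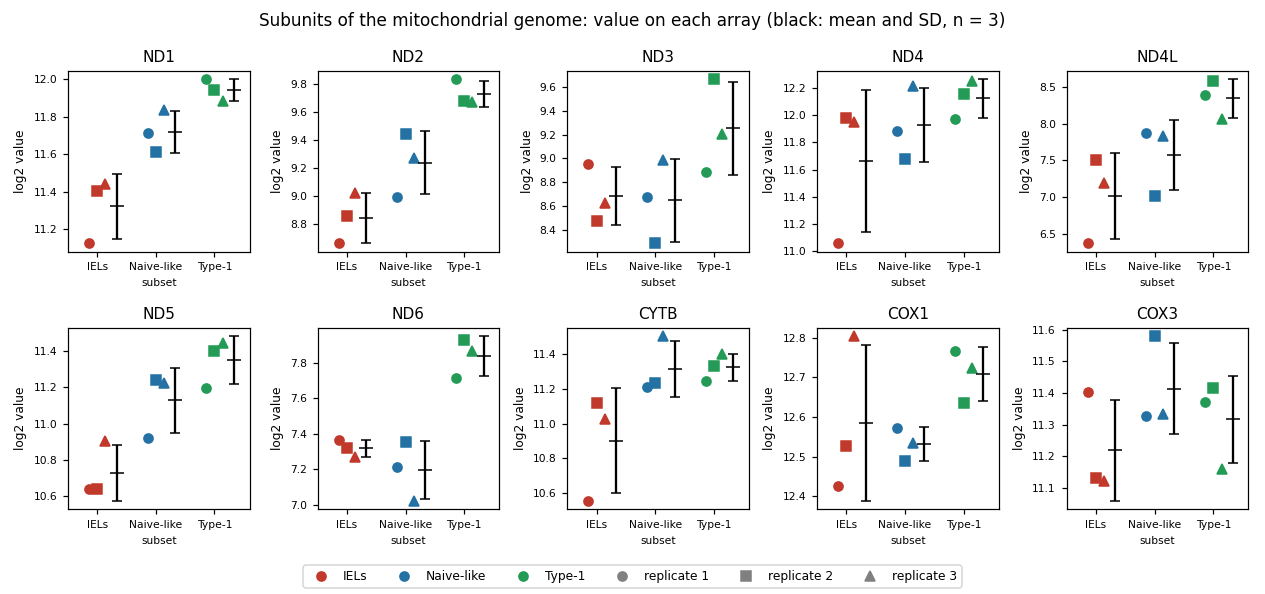
Log2 value on each of the 9 arrays for the 10 measured subunits of the mitochondrial genome, with the mean and SD (n = 3) of each subset in black and a scale of its own in each panel. In ND2 and ND4L, which passed, all IEL arrays lie under all Type-1 arrays, and in ND3, ND4, COX1 and COX3 the IEL and Type-1 groups overlap.

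Genes that build, feed or regulate the chain were taken from lists. Of all genes, 3.57% were higher and 1.62% lower in IELs than in Naive-like cells, and 3.73% and 1.41% than in Type-1 cells. A single gene that passes in a short list is therefore not a result about the list. Among 6 other subunits and carriers, Atpif1, the inhibitor that stops ATP synthase from running backward, passed. It had 9.19, 9.03 and 8.63 in IELs, 7.99, 7.97 and 8.39 in Naive-like and 7.93, 7.70 and 7.78 in Type-1 cells. IELs were higher than Type-1 cells by 1.14 ± 0.21 (limma adjusted p 0.00655), a call that held in all 24 alternatives. They were higher than Naive-like cells by 0.83 ± 0.21 (adjusted p 0.0408), a call that held in 11 of 23. It ended without IEL replicate 1 (0.71 ± 0.22, adjusted p 0.123), IEL replicate 2 (0.79 ± 0.25, 0.141), Naive-like replicate 1 (0.77 ± 0.25, 0.164), Naive-like replicate 2 (0.76 ± 0.25, 0.158), Type-1 replicate 2 or Type-1 replicate 3 (both 0.0531), and with the replicate block (0.0504). The call also ended with array medians subtracted, a second quantile normalization, or trend and robust spread. The same held in the 6 arrays compared and without replicate 1 of both IELs and Type-1 cells. Cytochrome c itself (Cycs) differed by 0.10 ± 0.21 and cytochrome c1 (Cyc1) by 0.22 ± 0.22 between IELs and Naive-like cells.

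Of 20 assembly factors of complex IV, 1 passed: Cmc2, a small twin-cysteine protein of the intermembrane space. Its values were 7.45, 7.13 and 6.95 in IELs, 5.54, 5.81 and 5.69 in Naive-like and 5.66, 5.74 and 5.62 in Type-1 cells. IELs stood clear of both lymph node subsets, by 1.5 ± 0.19 over each (limma adjusted p 0.000415 against Naive-like and 0.000458 against Type-1 cells), and both calls held in all alternatives. Of 12 genes of coenzyme Q synthesis and function, Coq10b, a coenzyme Q-binding protein, passed. It had 8.37, 8.05 and 8.97 in IELs, 5.90, 5.12 and 6.52 in Naive-like and 6.34, 4.84 and 5.91 in Type-1 cells, so IELs were higher by 2.62 ± 0.42 (adjusted p 0.0021) and 2.77 ± 0.42 (adjusted p 0.00156), and both calls held in all alternatives. No gene passed among 17 assembly factors of complex I, 4 of complex II, 6 of complex III and 4 of complex V, 16 genes of the TCA cycle and pyruvate dehydrogenase, or 71 mitochondrial ribosomal proteins. Of the 63 cytosolic ribosomal proteins, 13 were higher by sign in IELs than in Type-1 cells, with a median of -0.38, and 1 was lower in IELs than in Type-1 cells, Rps7 (-1.54 ± 0.37, adjusted p 0.0303), which ended without any single IEL array (adjusted p 0.0513 to 0.115).

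Of 17 regulators of mitochondrial biogenesis, 1 passed in each comparison with IELs, Polg against Naive-like and Polg2 against Type-1 cells, in opposite directions. Polg, the DNA polymerase of the mitochondrial genome, had 4.17, 4.93 and 4.71 in IELs and 5.37, 5.67 and 5.92 in Naive-like cells. It was lower in IELs than in Naive-like cells, at -1.05 ± 0.23 (limma adjusted p 0.018). Its Type-1 values were 5.36, 5.35 and 5.24, and it did not pass against Type-1 cells. The Polg call ended without IEL replicate 1 (-0.83 ± 0.22, adjusted p 0.0536), Naive-like replicate 2 (-1.04 ± 0.27, 0.0626) or Naive-like replicate 3 (-0.92 ± 0.25, 0.0836). Polg2, the accessory subunit of the same enzyme, had 7.93, 7.88 and 8.59 in IELs and 6.05, 6.38 and 6.90 in Type-1 cells, and was higher in IELs by 1.69 ± 0.32 (adjusted p 0.00821). Polg2 had 6.58, 7.72 and 7.40 in Naive-like cells and did not pass against them. Leaving out single arrays did not end the Polg2 call, but it ended in the 6 arrays of replicates 1 and 2 (limma adjusted p 0.0644). The factors whose motifs were searched did not pass in IELs against Naive-like cells: Nrf1 differed by -0.03 ± 0.19, Gabpa by 0.17 ± 0.21, Esrra by -0.17 ± 0.19 and Yy1 by -0.22 ± 0.23. Tfam, which packages and transcribes the mitochondrial genome, differed by 0.08 ± 0.21. In Type-1 against Naive-like cells no gene of any of these lists passed.

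Some markers of other cells and states moved with the IEL comparisons. Of 32 intestinal epithelial markers, 21 were higher in IELs than in Naive-like and 20 than in Type-1 cells, among them the Paneth cell defensin Defa21 (6.89 ± 0.25 and 6.81 ± 0.25) and Fabp2 (3.94 ± 0.36 and 3.76 ± 0.36). The log2 of their summed level was 11.9, 12.6 and 11.9 on the IEL arrays and between 9.19 and 9.44 on lymph node arrays. It was highest on IEL replicate 2, which had the highest of the IEL values in 23 of the 32 markers. IEL replicate 1, where most respiratory genes were highest, had the highest in 8. Among these were Fabp1 (8.38, 7.98 and 6.45 in IEL replicates 1, 2 and 3) and Fabp2 (8.26, 7.42 and 6.52). Whether epithelial RNA adds to the respiratory values was not tested. Of 16 genes of the response to dissociation, 8 and 9 were higher in IELs, such as Hspa1a (3.51 ± 0.48 and 2.42 ± 0.48), and of 17 proliferation genes 8 and 6, such as Mki67 (2.56 ± 0.36 and 2.50 ± 0.36). The dissociation genes had a log2 summed level of 13.7 to 14.1 on IEL, 11.6 to 12.3 on Naive-like and 11.5 to 12.8 on Type-1 arrays. The proliferation genes had 10.6 to 11.2, 10.3 to 10.6 and 10.4 to 10.6, and IEL replicate 1 was the lowest of the IEL arrays in 14 of the 17. Of 10 myeloid markers Fcgr3 and Itgam were higher in IELs in both comparisons. By sign only 5 of the 10 were higher in each, with median differences of 0.02 from Naive-like and -0.02 from Type-1 cells. Of 7 B-cell markers none passed. The log2 of the summed level was 8.19 to 8.34 on IEL and 7.54 to 8.05 on lymph node arrays for the myeloid markers, and 7.23 to 7.74 and 7.30 to 7.54 for the B-cell markers. No marker is at 0 on this scale. The part of these genes in the differences of Cox7a1, Sdhc, Atpif1, Cmc2, Coq10b, Polg, Polg2, ND2 and ND4L was not tested.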

How the data were processed

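The values are the log2 levels that the authors deposited, 41345 rows by 9 arrays. Per the submitters' processing notes they come from oligo with RMA, which sets the arrays to a shared distribution. Versions and filters are not stated there. Such values compress differences of dim genes and carry no detection calls. Gene symbols came from the platform annotation, in which 23521 rows had 1 gene symbol, 1814 several and 16010 none. Those of 1 symbol gave 22180 genes, and the brightest row on average stood for each. All 80 respiratory genes were found by Entrez identifier in RefSeq (GRCm38.p6) with unchanged symbols.

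Groups were taken from the sample titles. A linear model with 1 mean for each subset was fitted to the 9 arrays in limma 3.58.1 (R 4.3.3), and contrasts were moderated by eBayes with no trend. Two-sided p-values were adjusted over all 22180 genes by Benjamini-Hochberg and called under 0.05. The model had 6 residual degrees of freedom. The genes and lists were chosen with earlier results of these data known, so lists are described by counts and medians and not tested. Genes named are those that passed, the extremes of each complex and comparison, complex II, restricted isoforms, subunit c, complex I core, F1 head, and genes of other lists that passed, and others were chosen after their values were seen.

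Arrays of the same replicate number deviated together over all genes between IELs and Type-1 cells (correlations 0.161, 0.104 and 0.303), so a replicate block was fitted there as well. They did not throughout between IELs and Naive-like (0.087, -0.015 and 0.229) or Naive-like and Type-1 cells (0.014, 0.123 and 0.382). Plots used matplotlib 3.10.9 under Python 3.11.15, after table handling in pandas 2.3.3 (numpy 2.4.6).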

Additional observations from a re-analysis of the deposited data

How the results depend on the processing

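The count of respiratory genes that passed moved in 3 of the 4 tests, and stayed at 0 for Type-1 against Naive-like cells under all 23 alternatives. For IELs against Type-1 cells the count of 2 became 5 among genes above the 40th percentile of mean level, 4 with the description set as a block, 3 with the replicate block in 9 arrays, 3 with the code as a term (Atp5g1, Cox7a1 and Sdhc), 1 with that block in the 6 arrays compared, 1 in the 6 arrays compared, 1 in the 6 arrays without that code, which the descriptions of replicate 3 carry, and 0 with IEL and Type-1 replicate 1 left out together, which was chosen after seeing the data. Leaving out 1 array gave 0 to 2. With array medians subtracted, a second quantile normalization, cyclic loess, or trend and robust spread, the count stayed at 2 but consisted of Cox7a1 and Atp5g1, with Sdhc at adjusted p from 0.054 to 0.0853 (limma). For IELs against Naive-like cells the count of 0 became 1 above the 40th percentile, 3 with array weights and 1 in the arrays without the code, and leaving out 1 array gave 0 to 1. For the F test the count of 1 became 0 with array medians subtracted, with the description set as a block and without replicate 1 of both subsets, and 2 with array weights, and leaving out 1 array gave 0 to 1. The causes were not tested.

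No difference of a gene that passed changed sign under any alternative. Medians by complex stayed within the spread between arrays, but their signs did not all hold. Over the 80 genes the median ran from -0.01 to 0.38 for IELs against Naive-like, from 0.07 to 0.36 for IELs against Type-1 and from -0.13 to 0.04 for Type-1 against Naive-like cells, where cyclic loess gave 0.01. After a second quantile normalization complex V stood at -0.02 for IELs against Naive-like cells. The description sets put arrays together by their descriptions and not by a stated batch. Precision is limited by having 3 arrays per subset, and the table gives no background signal to set against dim genes.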
